A study of Mus musculus with 7 samples.

Results

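Cathepsins are the main proteases of the lysosome, the acidic compartment in which cells break down what they take up and what they renew. The genes described here are 10 cathepsins that a fixed list of names took from a count table of 52636 genes in mouse liver endothelial cells. The list holds Ctsl, Ctsb, Ctsz, Ctsh, Ctss, Ctsc, Ctsf and Ctso, which are cysteine proteases of the papain family, Ctsd, an aspartic protease, and Ctsa, a serine carboxypeptidase. All 10 were present in the table and all 10 had enough counts to be tested. The question was how their transcripts differ when the transcription factor c-Maf (gene Maf) is knocked out.

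Polyadenylated RNA was sequenced from endothelial cells sorted from mouse liver, in 3 control libraries and 4 libraries of a c-Maf knockout (KO). The labels call the genotypes Control and KO and name the tissue as liver. The allele, any Cre driver, the strain, the age and sex of the mice, and whether cells of several mice were pooled were not given in the sources used here. Replicate libraries are not tied to separate mice by any label, so the p-values below measure the spread between libraries, part of which may be technical.

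Cathepsins are made as inactive precursors. In the Golgi apparatus most receive a mannose 6-phosphate tag, which sorting receptors recognise and carry towards the lysosome, where the propeptide is cut away and the enzyme becomes active. Cystatins and related small proteins block those that escape. Sinusoidal endothelial cells of the liver are scavenger cells that clear proteins and glycans from blood by endocytosis, and their lysosomes depend on these enzymes to degrade the cargo.

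The cysteine cathepsins cut with a cysteine that sits in a short conserved stretch. It was searched for as cysteine, glycine, then serine, alanine or glycine, then cysteine, with tryptophan or tyrosine next. A search of the reading frame of each gene's principal transcript (GENCODE release M21, build GRCm38) found that stretch at 1 place in each of 8 genes and at none in Ctsd and Ctsa, whose mechanism differs. Those of 7 genes are shown because they separate the enzymes by class and because they show how far the sequences had diverged for reads to be told apart. Each is 30 bases of the coding strand, 5′ to 3′, with the codon of the catalytic cysteine in capitals.
Ctsl: ggccagtgcgggtctTGTtgggcgtttagc
Ctsb: ggctcctgcggctctTGTtgggcatttggg
Ctsz: cagtactgtggttccTGCtgggcccacggc
Ctsh: ggggcctgtggcagcTGCtggactttctct
Ctss: ggttcttgtggtgccTGCtgggctttcagt
Ctsc: gaatcttgtggaagcTGCtactcatttgcc
Ctso: gagatgtgtggaggaTGCtgggccttcagc

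Of the 7 shown, Ctsl and Ctsb used TGT for that cysteine and the other 5 used TGC. Even in this most conserved region the bases between the cysteine codons differed from gene to gene. Over the whole principal transcripts, the longest run of identical bases between any of the 45 pairs of these 10 genes was 18 bases, and 0 pairs shared 20 or more. Reads longer than that run could not match the principal transcripts of 2 of these genes exactly along their whole length. Runs shared with cathepsins outside the 10 reached 38 bases (Ctsa with Cts8), 23 (Ctsf with Ctsw) and 22 (Ctsl with Ctsm).

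Libraries held 24772716 to 32960007 counts. Levels are CPM, each library's counts brought to a common total and corrected with TMM factors (trimmed mean of M-values), which lay at 0.877 to 0.921 for controls and at 1.04 to 1.14 for KO libraries. Maf stood at 1664 to 2147 CPM in controls and at 28.9 to 158.9 CPM in KO libraries. Endothelial markers were present in all 7 libraries. Of 10 pan-endothelial markers 5 fell, 1 rose (Egfl7, 1076 to 1599 CPM on average) and 4 did not pass, and their sum ran from 19320 to 21390 CPM over the controls and from 12180 to 16620 CPM over the KO. Among them Pecam1 ran from 1270 to 1431 CPM in controls and from 662 to 1168 CPM in KO libraries, while Stab2, a scavenger receptor of sinusoidal endothelium, fell from 5958 to 647 CPM on average. Of 10 sinusoidal markers, 8 fell. In bulk RNA, fewer cells of a type and less RNA per cell cannot be told apart, and this holds for every value below. Of 15512 genes tested by edgeR's quasi-likelihood test with Benjamini-Hochberg adjustment over all of them (threshold 0.05), 3561 rose (23.0%) and 3448 fell (22.2%), so 45.2% changed, and the 3 control and 4 KO values did not overlap for 50.3% of genes. Scaling moved the centre of the data: the median over all tested genes, in log2 fold change, was 0.04 under TMM, 0.17 under upper-quartile scaling and 0.31 when only library totals were used.

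Most of the 10 cathepsin transcripts were lower in the KO. Of the 10 genes, 8 fell, beside 22.2% of all tested genes, and 0 rose. The count that rose was also 0 at an unadjusted p under 0.05, with DESeq2 and with limma-voom. The list was chosen with earlier results of these data known, and it leaves out Ctsk, a tested cathepsin that rose. Ctsl, Ctsd, Ctsb, Ctso, Ctsz, Ctsh, Ctsf and Ctsa fell (largest log2 fold change first), and Ctss and Ctsc did not pass the test. The control and KO values did not overlap in 8 of 10 genes, beside 50.3% of all tested genes. The median log2 fold change was -0.78 over the 10 genes and 0.04 over all tested genes.

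The summed level of the 10 genes was 5155, 5510 and 4944 CPM in controls 1 to 3. In KO 1 to 4 it was 1140, 1774, 1951 and 1251 CPM. All KO libraries were far below all controls, at a mean of 1529 ± 394 CPM (SD, n = 4) against 5203 ± 286 CPM (SD, n = 3), or 29.4% of the control level. Ctsl carried much of this sum. Without it the remaining 9 genes summed to 3023 ± 175 CPM in controls and 1235 ± 284 CPM in the KO, or 40.9% of control. As a share of all counts, with no scaling factor, the 10 genes took 0.468% ± 0.0140 of a control library and 0.164% ± 0.0369 of a KO library.

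Markers of other cells and of handling differed between the groups as well. Genes induced by tissue dissociation summed to 8129 to 10520 CPM over the controls and 11780 to 24190 CPM over the KO, with 6 of 13 higher by the test. Hepatocyte markers summed to 292 to 329.8 CPM against 370 to 1558 CPM (7 of 11 rose), and markers of platelets to 16.8 to 20.7 CPM against 29.3 to 44.0 CPM. Markers of stellate cells and fibroblasts summed to 23.4 to 179 CPM and 11.7 to 49.8 CPM, ranges that overlapped (5 of 10 fell), and control 3 was the highest. Dendritic cell markers summed to 426 to 480.6 CPM against 330.7 to 385 CPM, with no overlap. Clec9a and Ccr7 fell, and nearly all of the sum was Zbtb46 and Clec9a, while the defining Flt3, Xcr1 and Siglech were at or near 0. Erythroid markers summed to 2.59 to 10.2 CPM in controls and to 40.0, 7.42, 5.88 and 21.6 CPM in KO 1 to 4, highest in KO 1 and KO 4 (0 of 5 tested passed by edgeR, 3 at an unadjusted p under 0.05). Those of B cells, T and NK cells and neutrophils summed to at most 4.78 CPM in any library. Their part in the cathepsin values was not tested.

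**Figure D1:**
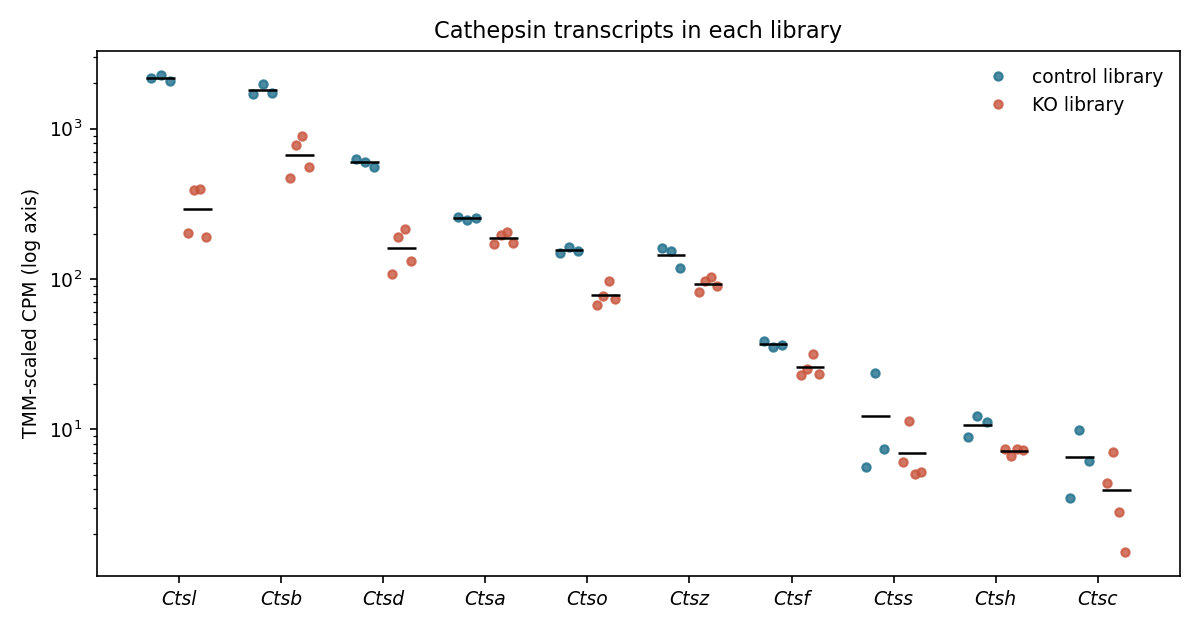
Level of each cathepsin gene (log10 axis, TMM-scaled CPM), with 3 control and 4 KO libraries as points and a line at each group's mean. Ctsl sits at 2062 CPM or more in every control and at 397 CPM or less in every KO library, while the points of Ctss and Ctsc mix between the groups.

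Ctsl (ENSMUSG00000021477, protein-coding, chr13:64359337-64370890, minus strand, GRCm38) encodes cathepsin L, an endopeptidase that degrades a wide range of endocytosed and autophagic proteins. Its level was 2187, 2290 and 2062 CPM in controls 1 to 3. In KO 1 to 4 it was 202, 389, 397 and 190.1 CPM. The highest KO library was well below the lowest control, and KO 2 and KO 3 had about the same level as each other, as had KO 1 and KO 4. The mean was 7.40-fold lower in the KO (2180 ± 114 CPM, SD, n = 3, to 294 ± 114 CPM, SD, n = 4), a log2 fold change of -2.89 (SE 0.28, adjusted p = 8.20e-05). Counted from the lowest, this log2 fold change ranked 77 of 15512.

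Ctsd (ENSMUSG00000007891, chr7:142375911-142388038, minus strand) encodes cathepsin D, the main aspartic protease of lysosomes. Controls 1 to 3 held 630.4, 602 and 556 CPM. KO 1 to 4 held 108, 189.8, 214 and 133 CPM. The groups were separated by a wide gap, and KO 1 was the lowest library. The level was 3.70-fold lower in the KO (596 ± 37.3 CPM to 161 ± 48.9 CPM), with a log2 fold change of -1.89 (SE 0.22, adjusted p = 0.000193), rank 269 from the lowest.

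Ctsb (ENSMUSG00000021939, chr14:63122462-63145923, plus strand) encodes cathepsin B, which cuts both inside proteins and at their carboxyl end. Its level was 1711, 1975 and 1737 CPM in controls 1 to 3. KO 1 to 4 had 469.6, 776, 888 and 553 CPM. Every KO library was below every control, and KO 3 kept the most. The mean fell 2.69-fold (1808 ± 146 CPM to 672 ± 194 CPM), with a log2 fold change of -1.43 (SE 0.22, adjusted p = 0.000821), rank 523 from the lowest.

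In CPM, which is not corrected for transcript length, Ctsl and Ctsb changed places. The ratio of Ctsl to Ctsb in CPM was 1.28, 1.16 and 1.19 in controls 1 to 3. In KO 1 to 4 it was 0.429, 0.501, 0.447 and 0.344. Ctsl was thus the more counted of the pair in all 3 controls and the less counted in all 4 KO libraries. Per kilobase of principal transcript, Ctsl stayed ahead of Ctsb on average in the KO (149 against 142 CPM), with overlapping ranges.

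**Figure D2:**
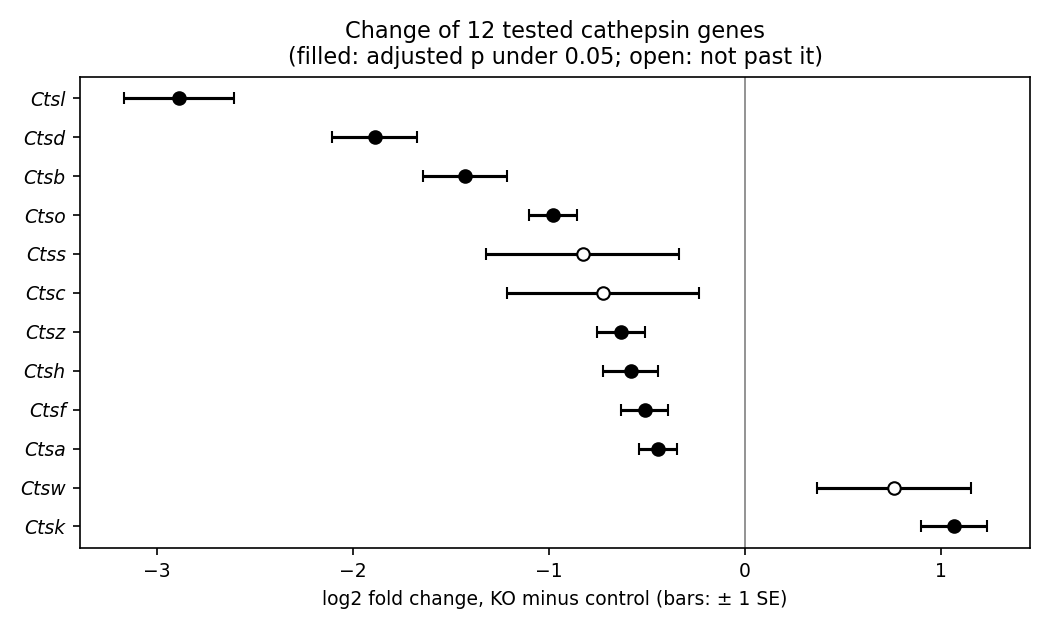
Log2 fold change, KO minus control, from edgeR's quasi-likelihood fit, for the 10 cathepsin genes and for Ctsk and Ctsw, the other cathepsins tested, with bars of 1 SE and filled points past an adjusted p of 0.05. The genes that fell run from -2.89 for Ctsl to -0.44 for Ctsa, the widest bars belong to Ctss and Ctsc, and Ctsk lies to the right at 1.07.

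Ctso (ENSMUSG00000028015, chr3:81932601-81956725, plus strand), a little-studied cysteine cathepsin, had levels of 149, 163 and 154 CPM in controls 1 to 3. KO 1 to 4 held 67.2, 77.5, 96.8 and 73.3 CPM. No KO library reached the lowest control. Ctso was 1.97-fold lower (155 ± 7.41 CPM against 78.7 ± 12.8 CPM), or -0.98 in log2 units (SE 0.12, adjusted p = 0.000302).

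Ctsz (ENSMUSG00000016256, chr2:174427493-174439039, minus strand) encodes cathepsin Z, a carboxypeptidase also called cathepsin X. Controls 1 to 3 held 161, 153 and 119 CPM, and KO 1 to 4 held 82.5, 96.6, 103 and 90.2 CPM. Control 3 came closest to the KO libraries, with KO 3 just under it. The level was 1.55-fold lower (144 ± 22.4 CPM to 93.1 ± 8.80 CPM), with a log2 fold change of -0.63 (SE 0.12, adjusted p = 0.00302).

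Ctsa (ENSMUSG00000017760, chr2:164832873-164841032, plus strand) encodes cathepsin A, or protective protein, which removes carboxyl-terminal residues and also shields beta-galactosidase and neuraminidase in a complex. Controls 1 to 3 held 260.2, 246 and 254 CPM of it, and KO 1 to 4 held 170.2, 196, 206 and 174 CPM. The groups were apart, but by less than for any gene above except Ctsz. The mean was 1.36-fold lower (253 ± 7.39 CPM to 186 ± 17.0 CPM), with a log2 fold change of -0.44 (SE 0.10, adjusted p = 0.00595).

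Ctsf (ENSMUSG00000083282, chr19:4855130-4860918, plus strand), a cysteine cathepsin with a long propeptide, had 38.9, 35.1 and 36.5 CPM in controls 1 to 3. KO 1 to 4 had 23.1, 25.04, 31.7 and 23.4 CPM. KO 3 lay nearest to the controls. The mean was 1.43-fold lower (36.8 ± 1.96 CPM to 25.8 ± 4.01 CPM), with a log2 fold change of -0.51 (SE 0.12, adjusted p = 0.00809).

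Ctsh (ENSMUSG00000032359, chr9:90054152-90076089, plus strand) encodes cathepsin H, an aminopeptidase. Controls 1 to 3 held 8.88, 12.2 and 11.1 CPM, and KO 1 to 4 held 7.43, 6.64, 7.39 and 7.26 CPM. The KO libraries were nearly level with each other, and control 1 was the closest to them. The mean was 1.497-fold lower (10.8 ± 1.71 CPM to 7.18 ± 0.366 CPM), with a log2 fold change of -0.58 (SE 0.14, adjusted p = 0.00900).

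The calls for Ctsa, Ctsf and Ctsh depended on scaling. With library totals in place of TMM, 5 of the 10 genes fell, beside 1976 of all 15512 genes tested. Ctsa (log2 fold change -0.18, adjusted p = 0.101), Ctsf (-0.25, adjusted p = 0.0822) and Ctsh (-0.31, adjusted p = 0.0975) were then no longer past the threshold. Ctsl, Ctsd, Ctsb, Ctso and Ctsz fell under that scaling too.

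Ctss (ENSMUSG00000038642, chr3:95526786-95556403, plus strand) encodes cathepsin S, an endopeptidase of antigen-presenting cells that cuts the invariant chain of class II complexes. Controls 1 to 3 held 5.61, 23.9 and 7.37 CPM. KO 1 to 4 held 6.05, 11.4, 5.03 and 5.19 CPM. Control 2 and KO 2 stood far above the rest of their groups, and the groups overlapped. On the log2 scale the difference was -0.83 (SE 0.49, adjusted p = 0.194) with all libraries and 0.09 (adjusted p = 0.865) without control 2.

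Ctsc (ENSMUSG00000030560, chr7:88278085-88310888, plus strand) encodes cathepsin C, or dipeptidyl peptidase I, which activates the granule serine proteases of blood cells. Its values were 3.50, 9.91 and 6.14 CPM in controls 1 to 3, then 4.39, 7.03, 2.82 and 1.53 CPM in KO 1 to 4. Control 2 and KO 2 were again the highest of their groups, and the ranges overlapped. On the log2 scale the difference was -0.73 (SE 0.49, adjusted p = 0.251) with all libraries, -0.29 without control 2 (adjusted p = 0.700) and -1.17 without KO 2 (adjusted p = 0.0679).

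The libraries highest in Ctss and Ctsc were those highest in macrophage transcripts. The summed level of 15 macrophage markers was 145, 385 and 211 CPM in controls 1 to 3 and 124, 255, 101 and 88.5 CPM in KO 1 to 4. Of the defining markers, Adgre1 (the F4/80 antigen) ran from 2.08 to 7.16 CPM in controls and from 1.03 to 4.85 CPM in KO libraries. Clec4f, a lectin of Kupffer cells, ran from 11.8 to 25.9 CPM and from 5.70 to 16.3 CPM, Csf1r from 6.08 to 23.6 CPM and from 5.43 to 17.2 CPM, and C1qa from 11.8 to 30.1 CPM and from 4.37 to 15.5 CPM. In all 4 genes control 2 and KO 2 were the highest of their groups, and 0 of the 4 were at 0. Of the 15 markers, 1 rose, 3 fell and 11 did not pass. The part of these cells in the values of Ctss and Ctsc was not tested.

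Over the controls, where the summed macrophage markers ran from 145 to 385 CPM, Ctsl ran from 2062 to 2290 CPM, Ctsb from 1711 to 1975 CPM, Ctsd from 556 to 630.4 CPM and Ctso from 149 to 163 CPM. Ctsl, Ctsb and Ctso were highest in control 2, as the markers were, and Ctsd was highest in control 1. With control 2 and KO 2 both left out, an alternative added after seeing the data, Ctsl (log2 fold change -3.02, adjusted p = 0.00114), Ctsd (-1.97, adjusted p = 0.00297) and Ctsb (-1.44, adjusted p = 0.0111) fell. In that fit 6 of 10 genes fell, beside 2061 of all 15871 genes tested. Ctsh (-0.45, adjusted p = 0.107) and Ctsf (-0.54, adjusted p = 0.0521) did not pass. The part of macrophage transcripts in the levels of these genes was not tested.

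**Figure D3:**
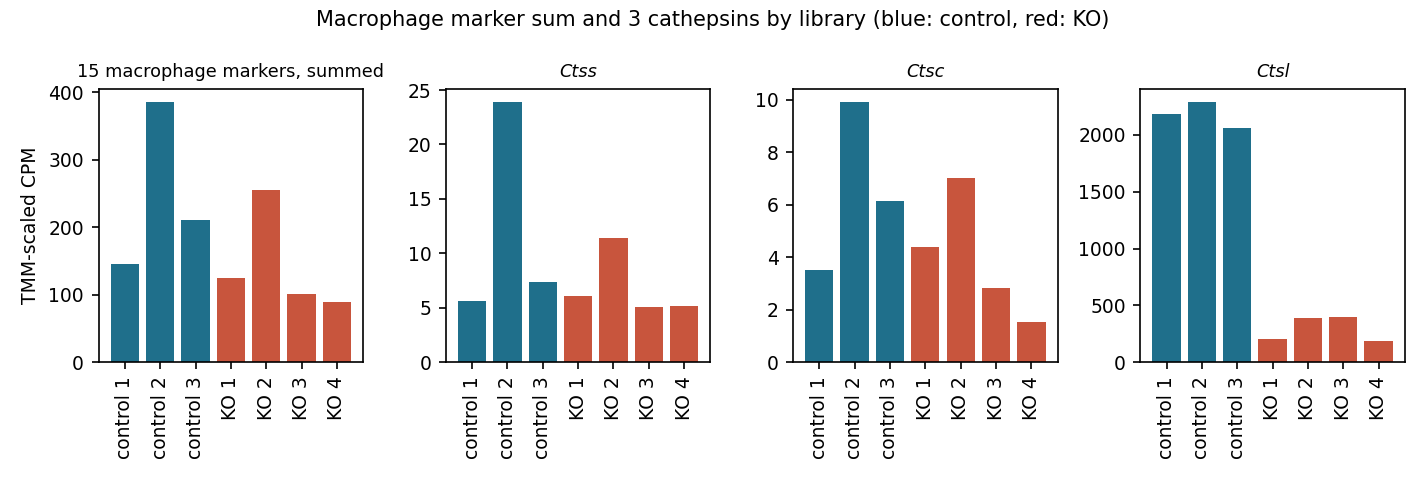
Bars give the summed level of 15 macrophage markers and the levels of Ctss, Ctsc and Ctsl in each library (TMM-scaled CPM, axes from 0, blue for control and red for KO). Control 2 (385 CPM of markers) and KO 2 (255 CPM) are the highest of their groups for the markers, Ctss and Ctsc, while Ctsl stays between 2062 and 2290 CPM in controls.

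Per length of transcript, Ctsl was the leading cathepsin of control cells. Levels per kilobase were TMM-scaled CPM divided by the length of each gene's principal transcript. In controls Ctsl had 1106 CPM per kilobase (range 1046 to 1162), 54.8% of the summed level of the 10 genes, followed by Ctsb with 381 (18.9%) and Ctsd with 280.3 (13.9%). Ctsz (100.1), Ctsa (69.5), Ctso (44.8) and Ctsf (18.6) came next, and Ctss (9.07), Ctsh (6.65) and Ctsc (2.61) were the lowest in CPM per kilobase. Only Ctss and Ctsh, neighbours in this order, had overlapping ranges over the 3 controls.

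In the KO the order was the same and the gaps were smaller. Ctsl had 149 CPM per kilobase, 28.2% of the sum, beside 142 for Ctsb (26.8%), 75.7 for Ctsd and 64.6 for Ctsz. Ranges over the 4 KO libraries overlapped between Ctsl and Ctsb, Ctsb and Ctsd, Ctsd and Ctsz, and Ctss and Ctsh. The leading place of Ctsl depended on the length used. With the union of all annotated exons, an alternative added after seeing the data, Ctsl (336 CPM per kilobase) and Ctsb (299) overlapped in controls, and in the KO Ctsl (45.4) came after Ctsb (111), Ctsd (68.5) and Ctsz (64.6).

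Genes next to each other in order of fold change were compared by their log2 CPM ratio within each library, for 9 pairs. That order came from these same libraries, so the sign of each difference was largely set in advance. The p-values here are descriptive and do not test pairs chosen independently. The ratio of Ctsl to Ctsd was 1.04 lower on the log2 scale in the KO, and its ranges were apart, 1.79 to 1.93 for the controls against 0.52 to 1.03 for the KO (2-sided exact permutation p = 0.0286, 0.129 after Benjamini-Hochberg adjustment over the 9 pairs). Ranges of the ratio were also apart for Ctsd to Ctsb and for Ctsb to Ctso. The other 6 pairs overlapped. With 35 possible regroupings, the smallest p the design allows is 0.0286, and after adjustment no pair passed 0.05.

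The KO libraries were not alike. Relative to the control mean, Ctsl stood at 9.25%, 17.8%, 18.2% and 8.72% in KO 1 to 4. Ctsd stood at 18.2%, 31.8%, 35.8% and 22.2%, and Ctsb at 26.0%, 42.9%, 49.1% and 30.6%. In each of these 3 genes KO 2 and KO 3 kept more than KO 1 and KO 4. That held for 7 of the 10 genes (70%), all but Ctsh, Ctss and Ctsc, beside 27.8% of all tested genes and 64.6% of all genes that fell.

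Other values split the KO libraries in the same way. The Maf transcript left in KO 1 to 4 was 1.47%, 8.08%, 6.33% and 1.92% of its control level, so KO 2 and KO 3 were the higher ones. The summed level of 11 hepatocyte markers was 1558, 370, 434 and 731 CPM in KO 1 to 4 and 292 to 329.8 CPM in controls, so KO 1 and KO 4 were the higher ones. Summed pan-endothelial markers were 12180, 14630, 16620 and 13160 CPM in KO 1 to 4, and sinusoidal ones 7367, 11020, 11980 and 8447 CPM. KO 2 and KO 3 were again the higher ones. Summed dissociation genes (24190, 19090, 11780 and 14400 CPM) and macrophage markers (124, 255, 101 and 88.5 CPM) did not split in that way. The part of all these values in the spread of the cathepsins was not tested. With KO 1 and KO 4 left out, 7 of 10 genes fell, beside 2420 of all 15419 genes tested. Ctsf (log2 fold change -0.37, adjusted p = 0.0654) did not pass in that fit.

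**Figure D4:**
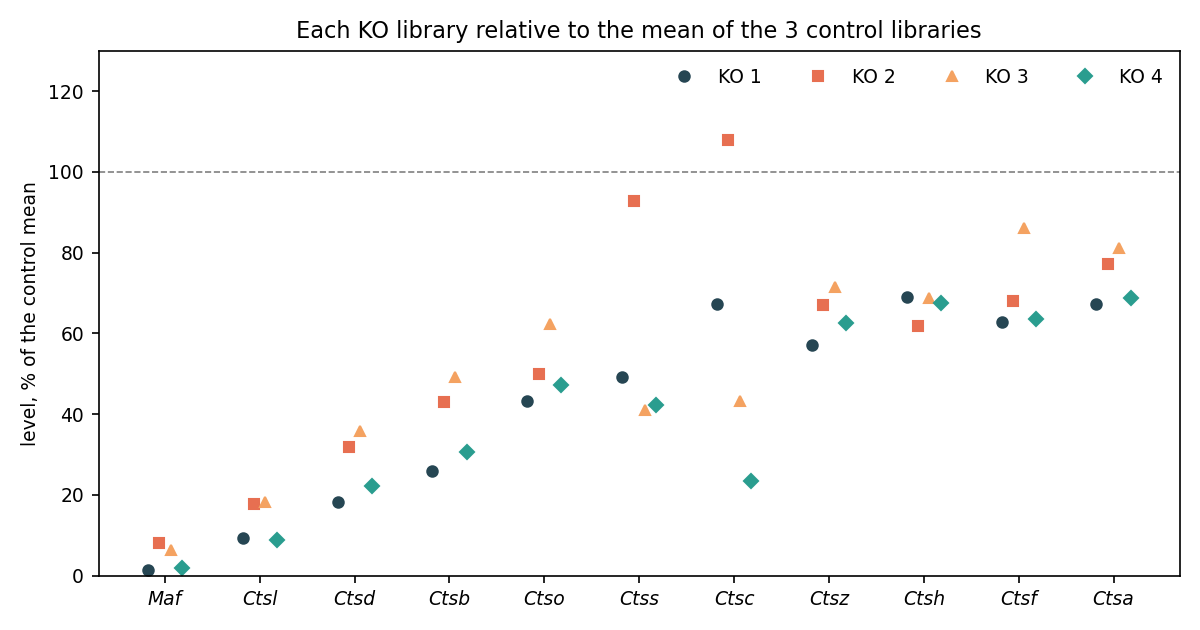
Level of Maf and of each cathepsin gene in each KO library, in percent of the mean of the 3 controls (dashed line at 100). Circles and diamonds (KO 1, KO 4) lie under squares and triangles (KO 2, KO 3) from Maf (1.47% to 8.08%) to Ctso, and only Ctsc in KO 2 lies above the control mean.

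Per the labels, lane 4 held control 3 and KO 3, and all 5 remaining libraries came from lane 5. Within lane 4, with 1 library a group and no test, all 10 genes were lower in the KO, with log2 ratios of -2.38 for Ctsl, -1.38 for Ctsd, -0.97 for Ctsb, -0.67 for Ctso and between -1.12 and -0.20 for the other 6. How many of all genes were lower within lane 4 was not counted. Within lane 5, 8 of 10 genes fell, beside 3830 of all 15826 genes tested there. The log2 fold changes of Ctsl, Ctsd and Ctsb in lane 5 were -3.16, -2.15 and -1.67. The direction of the 8 genes was the same in both lanes.

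Some members share exon bases with other genes. The labels name both an unstranded and a stranded kit without tying them to libraries, so reads from the opposite strand may be included, and how shared reads were assigned was not given in the sources used here. Ctsb shares 774 exon bases with Fdft1 on the other strand, and Fdft1 had 2424 counts over the 7 libraries beside 220409 for Ctsb. Ctsa shares 495 exon bases with Pltp (3455 counts) and 324 with Neurl2 (446 counts). Ctsz shares 10 exon bases with Nelfcd (10971 counts beside 22708 for Ctsz). Gm47123, antisense to Ctsl over 1742 exon bases, Gm49230, a pseudogene sharing 395 with Ctsl, and Gm49369, sharing 808 with Ctsd on its own strand, had 0 counts. The counts that these overlaps moved into or out of the members were not measured.

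The sequence at the start of the genes was examined because the members fell together. RefSeq promoter windows (GRCm38.p6, 250 bases before to 50 after an annotated start) were found for 8 of the 10 genes, with 2 for Ctsa and none for Ctsb and Ctsh. TFEB and its relatives, which drive lysosomal genes, bind CACGTG or its longer form TCACGTGA, and c-Maf recognises elements built on TGCTGA. Matches on either strand are shown in capitals within 30 bases, 5′ to 3′ along the gene's strand. The Ctss stretch and the Ctsz stretch farther from the start, both with TGCTGA, are not shown.
Ctsl, chr13:64370737-64370766 (minus): cgttagaagcCACGTGCTGAtctaaattct
Ctsl, chr13:64370651-64370680 (minus): cttccacttacaTCAGCAttgttgtgggtt
Ctsd, chr7:142388048-142388077 (minus): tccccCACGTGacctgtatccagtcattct
Ctsd, chr7:142387908-142387937 (minus): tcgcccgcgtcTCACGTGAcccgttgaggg
Ctsa, chr2:164833758-164833787 (plus): tgTCACGTGAtgcagatgcTCACGTGAcca
Ctsf, chr19:4855074-4855103 (plus): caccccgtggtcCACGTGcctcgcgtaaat
Ctsz, chr2:174439113-174439142 (minus): gaccccaggttcTGCTGAtccggttgtttg

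CACGTG was in 4 of the 9 windows (Ctsl, Ctsd, Ctsa and Ctsf) and in 7.15% of 32851 windows of all genes. TCACGTGA, which contains CACGTG, was in 2 of the 9, Ctsd and Ctsa, and in 0.974% of all windows. Window 2 of Ctsa held it at 2 places, first bases at -13 and 5 relative to the start of that window's transcript. Window 1 of Ctsa held no match, and the longer Ctsd match began at -99. TGCTGA was in 3 of the 9 windows (Ctsl, Ctsz and Ctss) and in 19.5% of all, and in Ctsl 1 match overlapped CACGTG by 2 bases. GCTGANTCA (1.19% of all windows), a fuller c-Maf element, was in 0 of the 9. TGANTCA (7.81%), the inner part of it that lacks the leading GC, was in 0 of the 9 too. Some of the stretches lie inside exons that GENCODE annotates before the RefSeq start. The longer Ctsd match and both Ctsa matches are within exons of the principal transcripts Ctsd-202 and Ctsa-201, and 17 of the 30 bases of the first Ctsl stretch are within an exon of Ctsl-203. A match describes the letters in the window and is no evidence of binding.

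A further 13 mouse cathepsin genes outside the 10 were in the table, of which 2 could be tested. Ctsk, which encodes the collagen-degrading cathepsin K and lies beside Ctss (chr3:95499256-95509362, plus strand), went the other way. Its values were 7.57, 8.16 and 5.66 CPM in controls 1 to 3, then 12.2, 16.1, 16.7 and 14.8 CPM in KO 1 to 4. All KO libraries were above all controls, and Ctsk rose (7.13 ± 1.31 against 14.9 ± 2.02 CPM), by 1.07 in log2 units (SE 0.17, adjusted p = 0.000992). Ctsw, of cytotoxic lymphocytes, had 0.306 and 0.512 CPM on average (adjusted p = 0.142). Of the 11 others, 8 had 0 counts in every library, where 3 counts would be 0.0873 to 0.132 CPM, a limit that covers counting error only.

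Transcripts of proteins that process cathepsins or work with them were lower as well. All 4 of that list fell under TMM (median log2 fold change -1.31). Lgmn encodes legumain, an asparaginyl endopeptidase that trims cathepsins to their mature chains. Its level was 981, 1121 and 1060 CPM in controls 1 to 3 and 57.3, 187, 145 and 75.9 CPM in KO 1 to 4. The libraries ranked KO 2 and KO 3 over KO 1 and KO 4, as for Ctsl, and all were far below the controls (log2 fold change -3.18, SE 0.37, adjusted p = 0.000197). Psap, the precursor of saposins, fell from 2273 ± 97.8 CPM to 923 ± 250 CPM (log2 fold change -1.30, adjusted p = 0.000889). Glb1 and Neu1, the beta-galactosidase and neuraminidase held by cathepsin A, had log2 fold changes of -1.32 (adjusted p = 0.00144) and -0.49 (adjusted p = 0.0383). Neu1 was no longer past the threshold without control 1, control 2, control 3, KO 3 or KO 4 (adjusted p = 0.0601 to 0.0948). It had -0.36 (adjusted p = 0.102) with upper-quartile scaling and -0.22 (adjusted p = 0.273) with library totals, so 3 of the 4 genes fell under each.

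The mannose 6-phosphate tag is made by the products of Gnptab, Gnptg and Nagpa, and 3 of 3 fell (median log2 fold change -0.50). Nagpa, which uncovers the tag, went from 88.2 to 54.3 CPM on average (log2 fold change -0.70, adjusted p = 0.00144). Gnptg had -0.50 (adjusted p = 0.000850) and Gnptab -0.34 (adjusted p = 0.0142), though the call for Gnptab was lost without control 2 (adjusted p = 0.0716) or control 3 (adjusted p = 0.0547). With upper-quartile scaling Gnptab had -0.21 (adjusted p = 0.0746) and with library totals -0.07 (adjusted p = 0.518), so 2 of 3 fell under each. These changes were smaller than those of Ctsl, Ctsd and Ctsb in log2 terms, with no test of the difference.

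Of 16 genes of sorting receptors and their adaptors, 7 fell, beside 22.2% of all tested genes, and 9 did not pass (median log2 fold change -0.33). The receptors differed. Scarb2, the LIMP-2 carrier of glucocerebrosidase, fell from 583 ± 54.5 CPM to 182 ± 72.6 CPM (log2 fold change -1.68, adjusted p = 0.000978), and M6pr, the cation-dependent mannose 6-phosphate receptor, from 151 ± 5.29 CPM to 103 ± 13.7 CPM (-0.55, adjusted p = 0.00349). Igf2r, the other mannose 6-phosphate receptor, had 40.0 and 43.8 CPM (0.13, adjusted p = 0.235), and passed as higher with library totals (0.39, adjusted p = 0.00369), where 4 of the 16 genes rose and 7 fell. Among the adaptors, Gga2 had a log2 fold change of -0.96 (adjusted p = 0.000365), and the retromer genes Vps26a, Vps35 and Vps29, which return receptors to the Golgi, had -0.93 (adjusted p = 0.000969), -0.72 (adjusted p = 0.00434) and -0.62 (adjusted p = 0.000453). Ap1b1, the most counted gene of the list, fell from 858 to 528 CPM on average (-0.70, adjusted p = 0.00727). The adaptor genes Gga1, Gga3, Ap1g1, Ap1m1, Ap1s1 and Ap1s2 did not pass under TMM.

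Of the inhibitors, 16 cystatin and propeptide-like genes were listed, 14 were in the table and 5 were tested. Of these, 1 rose, 1 fell and 3 did not pass, with a median log2 fold change of 0.23. Cst3, cystatin C, the most counted inhibitor, had 189.8 ± 10.1 CPM in controls and 209 ± 13.4 CPM in the KO (log2 fold change 0.14, adjusted p = 0.237). Cstb, cystatin B of the cytosol, fell from 44.7 ± 4.15 CPM to 31.2 ± 3.33 CPM (-0.52, adjusted p = 0.00435). Ctla2a, a propeptide-like inhibitor of cathepsin L type proteases, rose from 38.8 ± 0.774 CPM to 57.1 ± 10.6 CPM (0.56, adjusted p = 0.0115). The summed level of the list was 269 to 290.4 CPM in controls and 287 to 333 CPM in the KO, while the summed cathepsins fell to 29.4%. Directions here depended on scaling: with library totals 3 inhibitors rose and 0 fell.

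Other peptidases of the lysosome went mostly the same way as the cathepsins. Of 6 tested, 4 fell, Lgmn among them, and 2 did not pass (median log2 fold change -1.21). Dpp7 (dipeptidyl peptidase 2) was at 106 ± 4.83 CPM in controls and 50.5 ± 0.974 CPM in the KO (log2 fold change -1.07, adjusted p = 1.24e-05). Tpp1 (tripeptidyl peptidase 1) went from 499 ± 6.87 to 196 ± 33.6 CPM (-1.35, adjusted p = 9.24e-05) and Scpep1, a serine carboxypeptidase, from 117 ± 13.3 to 40.1 ± 9.61 CPM (-1.54, adjusted p = 0.000175). Prcp, a prolylcarboxypeptidase, had 126 ± 17.8 and 153 ± 12.1 CPM (0.27, adjusted p = 0.0772), and passed as higher without control 3 (0.37, adjusted p = 0.0436) and with library totals (0.54, adjusted p = 0.00371).

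The MiT family of transcription factors, which includes TFEB, drives lysosomal genes through CACGTG elements. Of its 4 genes, 3 fell. Tfec had a log2 fold change of -0.67 (68.9 to 43.4 CPM, adjusted p = 0.000709), Tfe3 of -0.58 (113 to 75.4 CPM, adjusted p = 0.00247) and Tfeb of -0.37 (32.1 to 24.8 CPM, adjusted p = 0.0177). Tfeb was not past the threshold without control 1 (adjusted p = 0.0602) or control 3 (adjusted p = 0.0602). It had -0.25 (adjusted p = 0.0711) with upper-quartile scaling and -0.11 (adjusted p = 0.389) with library totals, so 2 of the 4 genes fell under each. Mitf had 3.57 and 2.63 CPM (adjusted p = 0.0928).

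Genes linked to the known roles of Ctss and Ctsc were at low levels, the class II genes summing to 18.2 to 51.75 CPM over all libraries. Of 7 genes of class II presentation, 3 fell and 4 did not pass. Cd74, the invariant chain that cathepsin S cuts, fell from 21.3 ± 3.98 CPM to 9.77 ± 1.91 CPM (log2 fold change -1.12, adjusted p = 0.00110), and H2-Eb1 (-0.91, adjusted p = 0.00824) and H2-Aa (-0.96, adjusted p = 0.00897) fell with it. Without control 2 and KO 2, H2-Eb1 (adjusted p = 0.0881) and H2-Aa (adjusted p = 0.0716) did not pass. All 3 were highest among controls in control 2, the library highest in macrophage markers. Among KO libraries, where KO 2 was highest in those markers, only Cd74 was highest in KO 2. H2-Eb1 and H2-Aa were highest in KO 3 (3.11 and 2.94 CPM, beside 2.77 and 2.90 CPM in KO 2). The 9 serine proteases that cathepsin C activates had too few counts to test, with summed levels of 0.116 to 0.395 CPM.

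**Figure D5:**
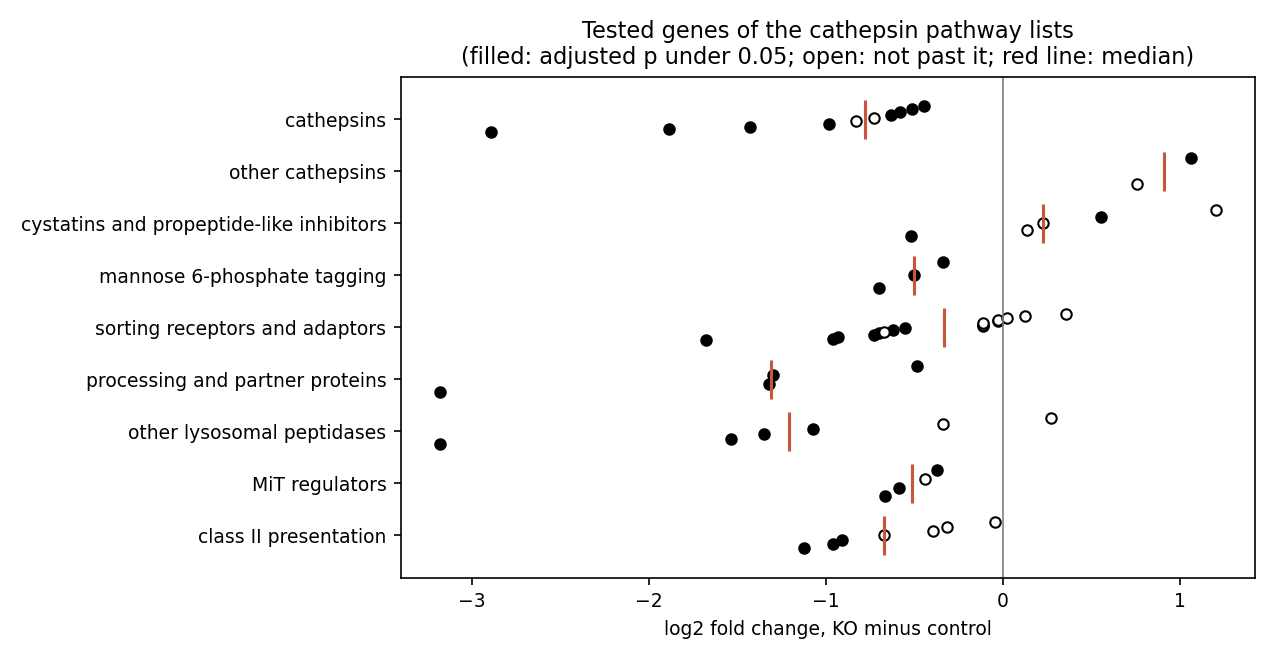
Log2 fold change, KO minus control, of each tested gene in the cathepsin list and in 8 lists around it, with filled points past an adjusted p of 0.05 and a red line at each median. Medians of the cathepsins (-0.78), the processing and partner proteins (-1.31) and the other lysosomal peptidases (-1.21) lie below 0, and that of the inhibitors (0.23) above it.

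The genes whose profile was most like that of Ctsb, the cathepsin with the highest mean log2 CPM, were found by the root mean square distance between centred log2 CPM profiles over the 7 libraries, among 12866 genes with names. The nearest were Ntn4 (distance 0.0726), Msrb3 (0.0747), Atp6ap2 (0.0780), Fam174b (0.0808) and Aqp1 (0.0829). Their log2 fold changes were -1.42, -1.32, -1.34, -1.44 and -1.48. Among the cathepsins Ctsd came nearest to Ctsb (0.244, rank 266), then Ctso (0.286, rank 415), and Ctsl lay at 0.759 (rank 5978). The 7 points share libraries and a group difference, so the distances mostly describe the size of that difference.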

How the data were processed

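For 7 libraries the authors deposited raw read counts per Ensembl gene. The submitters' processing notes name STAR 2.7.6a, FastQC 0.11.5 and build GRCm38. The counting tool, annotation release and strand setting were not given in the sources used here. Of 52636 gene IDs, 52403 matched a symbol and 233 did not.

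Groups came from the genotype label. Counts were filtered by filterByExpr (minimum 10 counts, total 15), scaled by TMM and tested with edgeR 4.0.16 (quasi-likelihood F-test, no covariate, Benjamini-Hochberg adjustment over 15512 genes, threshold 0.05) in R 4.3.3. Values are mean ± SD. The SE is the size of the log2 fold change over the root of F. Libraries of a group differed beyond counting noise (chi-square over its degrees of freedom, 14.5 to 106), so none was counted as a duplicate.

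The members, lists and tests were chosen with earlier results of these data known. Named genes were all 10 members, Maf, defining markers (of which only those beside a result are named), up to 4 called genes per list by smallest p, and the 5 genes nearest Ctsb. Other list genes were given by value, some chosen after their values were seen. Coordinates and transcripts came from GENCODE release M21 and promoter windows from RefSeq. A coding stretch of 1 gene is not reported here. The script was tested on simulated data.

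Alternatives were other scaling factors and filters, DESeq2 1.42.0, limma-voom (limma 3.58.1), lane as covariate, lane 5 alone, a replicate block and each library left out. Removal of libraries in pairs and the union-exon length were chosen after seeing the data.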

Additional observations from a re-analysis of the deposited data

Results flagged for a closer look

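Ctss had 1 KO library far from the others. KO 2 held 11.4 CPM and KO 1, KO 3 and KO 4 held 5.03 to 6.05 CPM, so the gap between KO 2 and the next library was 0.841 of the whole range of the 4 libraries, above Dixon's 95% critical value for 4 values. KO 2 was also the KO library highest in summed macrophage markers (255 CPM). Chance alone marks about 1 group in 20 in this way, and Ctss in the KO was the only one so marked among the 45 genes examined.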

How the results depend on the processing

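The count of cathepsins that fell was 8, and of those that rose 0, in every fit that left out a single library and in every other alternative except 3. Library totals gave 5 that fell, the removal of control 2 with KO 2 gave 6, and that of KO 1 with KO 4 gave 7. Ctsl (-3.16 to -2.47), Ctsd (-2.15 to -1.56), Ctsb (-1.67 to -1.12), Ctso (-1.15 to -0.72) and Ctsz (-0.85 to -0.37) stayed past the threshold in all 20 alternatives run. With 1 library left out, Ctss ran from -1.18 to 0.0886 (adjusted p = 0.865), the latter without control 2. No label pairs same-numbered libraries, though control 3 and KO 3 shared lane 4. The correlations of their deviations from the group means were -0.02, 0.18 and 0.05 for numbers 1 to 3. With 3 and 4 libraries a group, these values cannot decide whether libraries were paired. With the replicate block, 8 cathepsins fell and 0 rose (Ctsl -2.79, adjusted p = 0.000477), and over all genes 2542 rose and 2627 fell. Over all genes, 6373 rose and 1976 fell with library totals, and 2010 rose and 2061 fell without control 2 and KO 2. Without KO 1 and KO 4, 2234 rose and 2420 fell. In the fits that left out a single library, 2584 to 3930 genes fell. The share of calls that rose was 50.8% under TMM, 63.4% under upper-quartile scaling and 76.3% under library totals. Neu1, Gnptab and Tfeb lost their calls in several alternatives, and Ctla2a without control 2 and KO 2 (adjusted p = 0.0808) or without KO 1 and KO 4 (adjusted p = 0.0640). Cstb was not past the threshold under library totals (adjusted p = 0.0623). Prcp, Cst3 and Igf2r passed as higher in the KO under library totals and under upper-quartile scaling. Depth limits Ctsc most, with 52 to 238 counts per library.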
